A study of Populus tremula x Populus alba with 6 samples.

Results

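Transcripts of 5 flowering genes were followed in the shoot apex of 6 hybrid poplars: the FLOWERING LOCUS T genes FT1 (Potri.008G077700) and FT2 (Potri.010G179700), the CENTRORADIALIS-like genes CEN1 (Potri.004G203900) and CEN2 (Potri.009G165100), and LEAFY, here LFY (Potri.015G106900). The 5 were named as the poplar florigen, its antagonists and a floral target, with no threshold on their values, and all 5 are among the 32049 genes listed in the count files. The identifiers place them on chromosomes 8, 10, 4, 9 and 15. The deposited files carry identifiers only, so the gene names are those given with the choice of members and were not checked against an annotation. Identifiers of this form are those of Populus trichocarpa loci, whereas the plants were of another hybrid, and reads lost to that difference were not counted.

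The plants were Populus tremula x Populus alba, hybrid 717-1B4. The RNAi group (RNAi 1, 2 and 3) carried a knock-down construct against DDM1, a chromatin remodeller that plants need to keep DNA methylated, and the wild-type group (CTRL 1, 2 and 3) did not. All 6 had been through 3 weeks of water deficit and 1 week of re-watering, in compost at 21 °C with 16 h of light, and were harvested 115 days after planting. The labels do not say how many transformed lines the RNAi plants represent, so that an effect of a line and one of the knock-down cannot be told apart, and there was no group kept well watered. Neither DDM1 nor marker genes of the apex were analysed here, so the knock-down and the tissue rest on the labels. Counts assigned to genes lay between 12399644 and 17165295 per library.

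FT proteins belong to a small family of phosphatidylethanolamine-binding proteins. In Arabidopsis, FT is made in the veins of leaves, moves through the phloem to the shoot apex and there acts with the bZIP factor FD to turn on genes of floral identity, among them APETALA1. TERMINAL FLOWER1, the Arabidopsis relative of CEN, is made in the meristem itself, binds FD as well and holds the meristem in its vegetative state. LEAFY is a transcription factor that gives a young primordium the identity of a flower. In poplar the same family also serves the yearly growth cycle: FT2 keeps shoots growing under long days, FT1 is known from winter buds and the onset of flowering, and CEN1 and CEN2 are known to delay first flowering and to act on bud dormancy.

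CEN1 was the one gene of the 5 with a readily measurable transcript in these apices, in RNAi and wild-type plants alike. LFY was detected in every library, but mostly at a few counts, and FT1, FT2 and CEN2 were at or near 0. Over the 6 libraries CEN1 had 1708 counts and LFY had 38. FT2 had 2 counts in all, and FT1 and CEN2 had 1 each. CEN1 alone passed the filter on low counts and was tested. Its difference between RNAi and CTRL was not significant, and in that test 1 gene of 24991, or 0.00400%, was called changed at an adjusted p under 0.05.

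**Figure D1:**
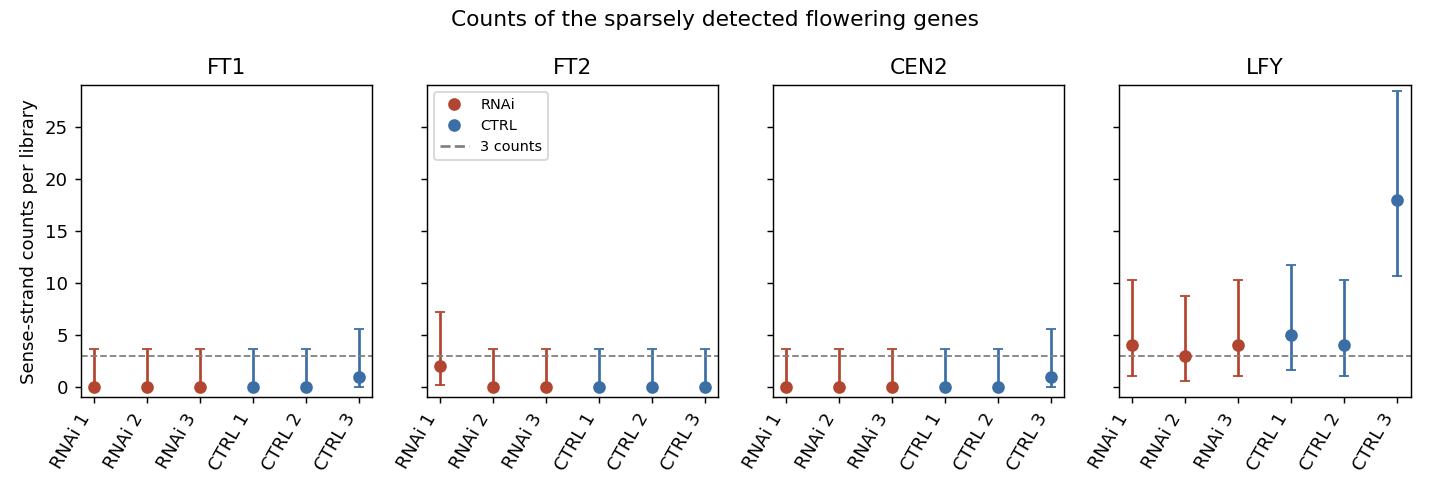
Sense-strand counts of FT1, FT2, CEN2 and LFY in RNAi 1 to 3 and CTRL 1 to 3, with exact 95% Poisson intervals that cover counting error only. The dashed line marks 3 counts, the one-sided limit that a count of 0 allows. FT1, FT2 and CEN2 each have 0 counts in 5 of the 6 libraries, and LFY lies between 3 and 5 counts except in CTRL 3, with 18.

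Of the florigen genes, FT1 had 0 counts in RNAi 1, 2 and 3, against 0, 0 and 1 counts in CTRL 1, 2 and 3. FT2 had 2, 0 and 0 counts in RNAi 1, 2 and 3, against 0 counts in each of the CTRL libraries. Each gene was thus seen in a single library, FT1 in a wild-type apex and FT2 in an RNAi apex. A count of 0 allows up to 3 counts as a one-sided limit, which is between 0.173 and 0.260 CPM (counts per 1000000 of the library size, after trimmed-mean or TMM scaling) in a single library. Summed over a group, the limit was 0.0641 CPM in RNAi, which holds for FT1, and 0.0708 CPM in CTRL, which holds for FT2. The two-sided exact Poisson interval for the same counts of 0 ends higher, at 0.0789 CPM in RNAi and 0.0871 CPM in CTRL. For the groups with counts, this two-sided interval of the pooled level ran from 0.00518 to 0.154 CPM for FT2 in RNAi and from 0.000598 to 0.132 CPM for FT1 in CTRL. Both groups of both genes were under 3 counts, so no fold change is given, and a difference was not detectable at this depth.

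Genes as sparse as these were common in the files. A total of 3136 of the 32049 listed genes, or 9.79%, had at most 2 counts over the 6 libraries, and 2253, or 7.03%, had 0. FT1 and FT2 are close paralogs, and so are CEN1 and CEN2. The files hold reads that mapped to more than 1 place in a line of their own, which held 3.43% to 3.88% of a library, and how many of those belonged to FT or CEN genes was not tested.

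The listed neighbours of the FT genes had very different counts. Beside FT1, Potri.008G077800 had 224, 174 and 334 counts in RNAi 1, 2 and 3, against 138, 253 and 259 counts in CTRL 1, 2 and 3. On the other side of FT1, Potri.008G077600 had between 12 and 32 counts per library. Next to FT2 lay Potri.010G179800 with between 18 and 48 counts per library and Potri.010G179600 with 27 counts over all 6 libraries, while the next listed gene, Potri.010G179500, had 0 counts throughout. So the FT1 identifier at 0 or 1 count stood between genes that were counted in every library.

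The antagonist CEN1 was transcribed in all 6 apices. It had 225, 188 and 312 counts in RNAi 1, 2 and 3, which is 16.3, 12.0 and 18.0 CPM. CTRL 1, 2 and 3 had 88, 428 and 467 counts, which is 7.62, 29.4 and 28.7 CPM. The RNAi values thus lay between those of the wild types. CTRL 1 was the lowest of all 6 libraries, and CTRL 2 and CTRL 3 were the highest. The groups therefore overlapped. RNAi and CTRL levels lay fully apart, in either direction, in 11.8% of all tested genes.

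**Figure D2:**
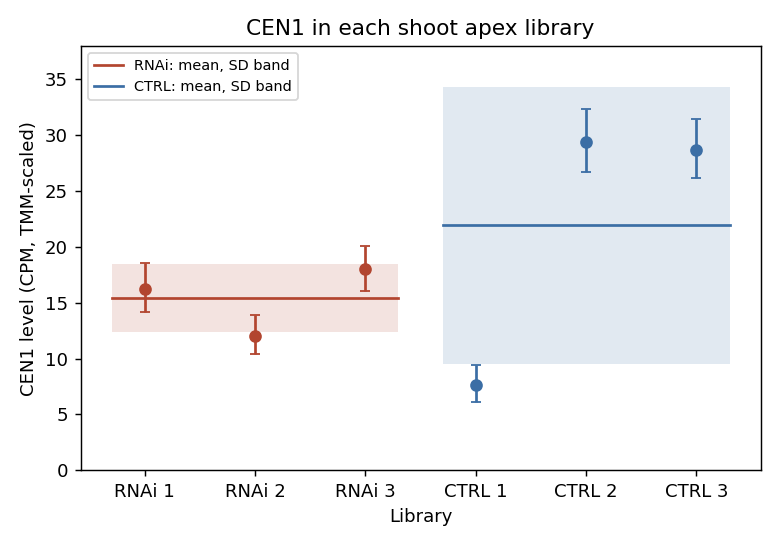
CEN1 level in CPM (TMM-scaled) in each library, RNAi 1 to 3 and CTRL 1 to 3. Points carry exact 95% Poisson intervals for counting error, lines are group means and bands are ± 1 SD (n = 3 each). The RNAi apices lie between 12.0 and 18.0 CPM, above CTRL 1 at 7.62 CPM and below CTRL 2 and CTRL 3 at 29.4 and 28.7 CPM.

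CEN1 averaged 15.4 ± 3.1 CPM in RNAi apices and 21.9 ± 12.4 CPM in CTRL apices (SD, n = 3 each). Its log2 fold change was -0.51 ± 0.44 (SE), a 0.70-fold level in RNAi with a 95% interval from 0.35-fold to 1.41-fold. Over all tested genes, edgeR's quasi-likelihood test gave it an adjusted p of 0.83. A fitted log2 fold change as low as that of CEN1 or lower was found for 4.29% of the tested genes. In a whole apex, fewer cells that express a gene and less RNA per cell cannot be told apart.

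The wild-type plants differed from each other in CEN1 by more than the groups did. The level in CTRL 2 was 3.86 times that in CTRL 1, with an exact 95% interval from 3.07 to 4.92 for counting error, and CTRL 3 had 3.77 times the level of CTRL 1, from 3.00 to 4.79. CTRL 2 and CTRL 3 themselves differed by a factor of 1.02, within counting error (0.896 to 1.17). Among the RNAi plants the highest level, in RNAi 3, was 1.49 times the lowest, in RNAi 2 (1.24 to 1.80). The spread over replicates relative to the mean (the coefficient of variation) was 19.8% in RNAi and 56.5% in CTRL. Whether the spread itself differed between the groups was not tested.

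Set against other genes, the range of CEN1 among the wild types was wide. Over RNAi 1 to 3 its highest and lowest library lay 0.57 apart on a log2 CPM scale, and over CTRL 1 to 3 they lay 1.93 apart. The median tested gene had ranges of 0.42 over RNAi and 0.40 over CTRL. A range as wide as that of CEN1 was reached by 35.0% of the tested genes over RNAi and by 1.07% over CTRL. The fitted biological coefficient of variation of CEN1, the spread between plants beyond counting error, was 0.376, against a median of 0.180, and 3.88% of the tested genes had a value as high.

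**Figure D3:**
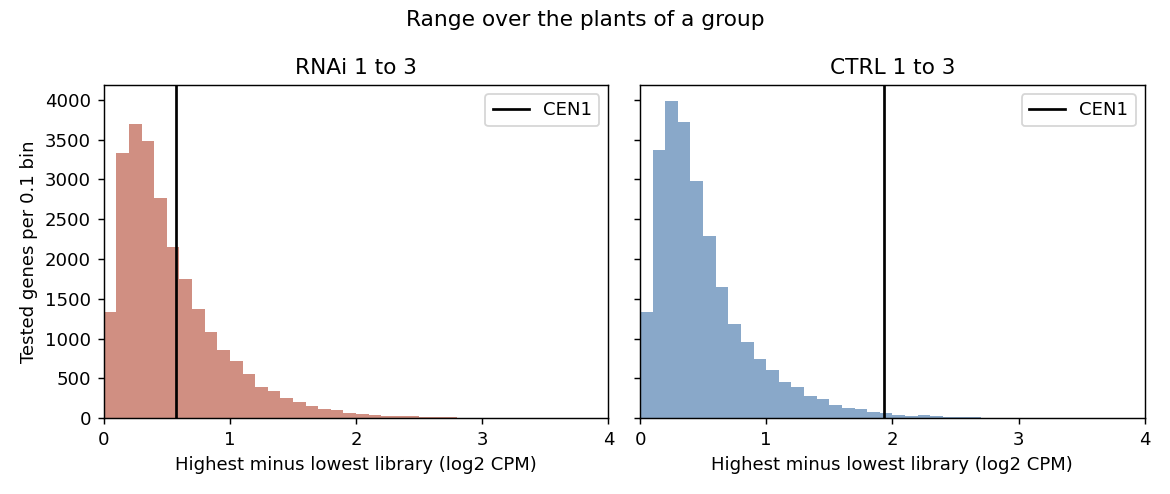
Difference between the highest and the lowest library of a group for all tested genes, in log2 CPM (prior count 2), over RNAi 1 to 3 and over CTRL 1 to 3. The vertical line marks CEN1, at 0.57 in RNAi and 1.93 in CTRL; bars give tested genes per bin, and the axis ends at 4.

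CTRL 1, the wild type with little CEN1, was also the library with the fewest gene counts (12399644). On the first principal component of all tested genes, which held 35.4% of the variance, CTRL 1 scored -14.6, and RNAi 2 lay furthest out at 63.7. On the second component, which held 28.6%, CTRL 1 had the lowest score (-44.2), with RNAi 1 next (-19.0). CTRL 2 (34.3) and RNAi 3 (34.6) were at the other end of the second component. CTRL 3, with about as much CEN1 as CTRL 2, had a score of 1.13 on it. CTRL 1 was the lowest of the 6 libraries for 18.3% of the tested genes. The part of depth or of either component in the CEN1 values was not tested.

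Leaving out CTRL 1 moved the CEN1 difference most. With 3 RNAi and 2 wild-type libraries the means were 15.4 CPM in RNAi and 29.1 CPM in CTRL. The log2 fold change was then -0.91 ± 0.19 (SE), a 0.53-fold level in RNAi (95% interval 0.39-fold to 0.72-fold), and its adjusted p in edgeR was 0.54. In that fit 0 of 25450 genes passed the adjusted threshold, and 1996, or 7.84%, had an unadjusted p under 0.05, CEN1 among them. Without CTRL 2 the log2 fold change was -0.25 ± 0.48 and without CTRL 3 it was -0.27 ± 0.50 (SE), with adjusted p of 0.94 and 1.00 in edgeR. The size of the difference therefore depended on which wild-type plant was left out, while its sign did not.

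**Figure D4:**
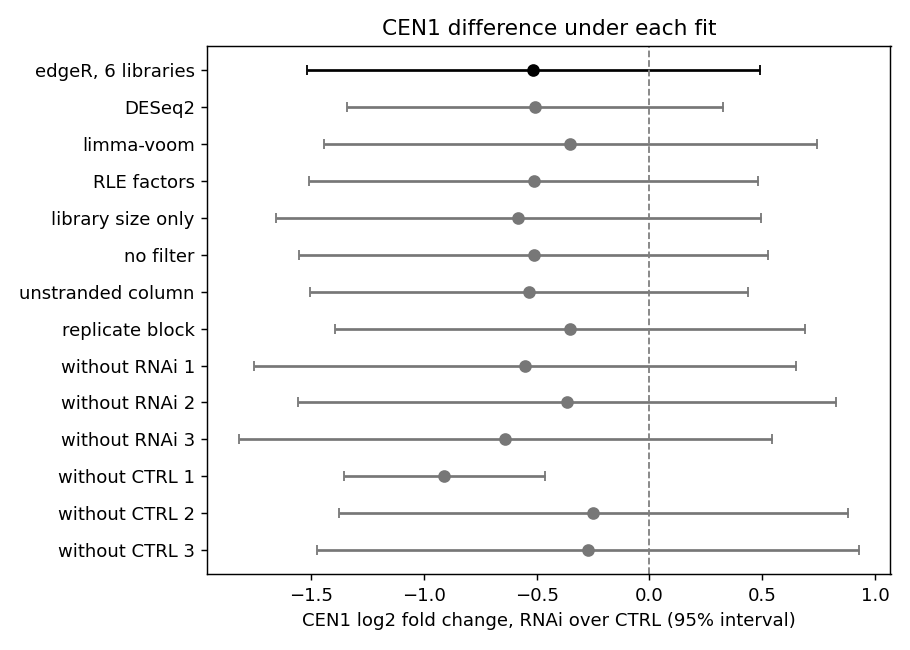
CEN1 log2 fold change, RNAi over CTRL, with 95% intervals, for edgeR's quasi-likelihood fit on 6 libraries (black) and for each alternative (grey). All values are below 0, and the interval leaves out 0 in the fit without CTRL 1 alone, where the adjusted p was 0.54.

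The genes whose levels followed CEN1 most closely over the 6 libraries, by Pearson's correlation of log2 CPM, were Potri.012G018200 (r = 0.999) and Potri.004G143700 (r = 0.995). Potri.012G018200 had 11.1, 9.87 and 11.9 CPM in RNAi 1, 2 and 3, against 8.13, 14.6 and 14.1 CPM in CTRL 1, 2 and 3. Potri.004G143700 had 30.0, 26.6 and 31.7 CPM in RNAi 1, 2 and 3, against 23.7, 38.6 and 37.8 CPM in CTRL 1, 2 and 3. Both repeated the order of CEN1, with CTRL 1 lowest and CTRL 2 and CTRL 3 highest, over a narrower range. The correlation was above 0.95 for 132 of the 24990 other tested genes and below -0.95 for 66. All genes were measured in the same 6 libraries, and these values were picked as the highest of many, so they are a description only.

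Reads on the strand opposite to CEN1 were rare, with a single one in RNAi. They numbered 0, 0 and 1 in RNAi 1, 2 and 3, against 6, 4 and 3 in CTRL 1, 2 and 3, so that the groups did not overlap. As a share of the counts on both strands of CEN1, this was 0.138% in RNAi (1 of 726, exact 95% binomial interval 0.00349% to 0.765%) and 1.31% in CTRL (13 of 996, 0.697% to 2.22%), intervals for counting error only. CTRL 1 had the most opposite-strand reads and the fewest sense reads, which gave a share of 6.38% there, against 0.926% in CTRL 2 and 0.638% in CTRL 3. Over all genes of a library the share was between 1.59% and 1.65% in RNAi and between 1.67% and 1.82% in CTRL, so that it too was lower in every RNAi library; its part in the CEN1 counts was not tested. Of the 6999 genes with at least 10 opposite-strand counts in all, 7.74% were lower in every RNAi library than in every CTRL library. This difference was not tested.

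CEN2, the other antagonist, had 0 counts in RNAi 1, 2 and 3, against 0, 0 and 1 counts in CTRL 1, 2 and 3. The two-sided exact Poisson interval of its pooled level reached up to 0.0789 CPM in RNAi and ran from 0.000598 to 0.132 CPM in CTRL. As for the FT genes, no fold change is given. The genes on either side of CEN2 were counted in every library, Potri.009G165000 with 1571 to 2047 and Potri.009G165200 with 305 to 519. A planned comparison of the ratio of CEN1 to CEN2 between the groups was not made, since such a ratio would rest on a single CEN2 count.

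LFY, the floral identity gene, was detected at a low level in every apex. It had 4, 3 and 4 counts in RNAi 1, 2 and 3, which is 0.289, 0.192 and 0.231 CPM. CTRL 1, 2 and 3 had 5, 4 and 18 counts, which is 0.433, 0.275 and 1.11 CPM. CTRL 3 was the highest: the exact Poisson interval of its level, from 0.656 to 1.75 CPM, lay above those of RNAi 2 and RNAi 3, which reached 0.562 and 0.591 CPM, and overlapped those of RNAi 1, CTRL 1 and CTRL 2, which reached 0.740, 1.01 and 0.704 CPM. The groups overlapped, because RNAi 1 was above CTRL 2, though with library size as the only scaling CTRL 2 was the higher of this pair.

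The mean LFY level was 0.237 ± 0.049 CPM in RNAi and 0.605 ± 0.442 CPM in CTRL (SD, n = 3 each). An exact two-sided permutation test of these levels gave p = 0.20, where 3 against 3 libraries cannot go below 0.10. With library size as the only scaling, which reversed the order of RNAi 1 and CTRL 2, the same permutation test gave p = 0.10. The pooled counts, 11 in RNAi and 27 in CTRL, had a ratio of 0.369 with an exact 95% interval from 0.165 to 0.768, which covers counting error and not the spread between plants. Of the 27 CTRL counts, 18 came from CTRL 3. The log2 ratio of the mean levels was -1.35 with all libraries and -0.58 without CTRL 3, a 0.67-fold level in RNAi (exact permutation p = 0.30). With no filter on low counts, edgeR's quasi-likelihood test gave a log2 fold change of -1.37 ± 0.65 (SE) and an adjusted p of 0.84. No opposite-strand read was counted at LFY, FT1, FT2 or CEN2 in any library (0 each).

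CTRL 3 was high for both CEN1 and LFY. CTRL 2, with as much CEN1 as CTRL 3 within counting error, had 4 LFY counts, about as many as the RNAi libraries. CTRL 1, the lowest for CEN1, had 5 LFY counts. The single counts of FT1 and of CEN2 were both in CTRL 3.

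The genes next to the 5 members gave no call either. Of the 20 listed neighbours, 2 on each side of each member, 16 passed the filter. By edgeR's quasi-likelihood test 0 of them were called, where the share over all tested genes was 0.00400% (1 of 24991). At that share, 0 calls say nothing particular about the neighbours. The log2 fold changes of the 16 lay between -0.42 and 0.50. The lowest of these belonged to Potri.015G106700, the listed gene before LFY, which had 38.2 ± 4.5 CPM in RNAi and 51.0 ± 3.5 CPM in CTRL (SD, n = 3 each, log2 fold change -0.42 ± 0.13 SE, adjusted p = 0.80 in edgeR). It was also the 1 neighbour of the 16 with an unadjusted p under 0.05, where 5.64% of all tested genes had one. On the far side of LFY, Potri.015G107200 had 10 counts in all. The immediate neighbours of CEN1 were Potri.004G203800, with 1045 to 1481 counts per library, and Potri.004G204000, with 0 sense-strand counts throughout. The levels of Potri.004G203800 were 81.2 ± 12.6 CPM in RNAi and 86.6 ± 9.7 CPM in CTRL (SD, n = 3 each), so the wide range of CEN1 among the wild types was not seen in the listed gene before it.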

How the data were processed

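Polyadenylated RNA was sequenced as stranded, paired-end libraries, per the labels' protocols. The values are raw gene counts as deposited by the authors, with an unstranded, a forward and a reverse column, per the file headers. STAR is named in the submitters' processing notes; no source used here gives its version, a genome build or an annotation. The reverse column was used as the sense strand. Summary lines that name no gene (11.7% to 13.1% of reads) stayed out of library sizes and tests.

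RNAi was compared with CTRL over the whole table with edgeR 4.0.16 in R 4.3.3 (quasi-likelihood F test, robust, TMM factors, filterByExpr, Benjamini-Hochberg adjustment, threshold 0.05), tested on simulated data. SEs were derived from the log2 fold change and F. Members under the filter were given by counts, with a floor of 3 counts and 95% exact intervals that cover counting error only, and LFY by an exact permutation test. Alternatives were DESeq2 1.42.0, limma-voom (limma 3.58.1), other scaling, no filter, the unstranded column, the replicate number as a block and leaving out each library. The series' design text calls the libraries biological replicates. The members were picked by name and not by a measured value, but they, the lists and the tests were chosen with earlier results of these data known. By rule, the text names the 5 members, their 2 listed neighbours on each side and the 2 genes most correlated with each tested member. Other genes of the flowering pathway and DDM1 were not analysed here, since the count files list identifiers alone.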

Additional observations from a re-analysis of the deposited data

How the results depend on the processing

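CEN1 stayed lower in RNAi than in CTRL and short of the threshold in all 13 alternatives, with log2 fold changes between -0.91 and -0.25 and adjusted p between 0.54 and 1.00 in edgeR, DESeq2 or limma-voom. Both ends of that range came from leaving out 1 library, CTRL 1 and CTRL 2. LFY likewise stayed lower in RNAi in its 13 alternatives, between -1.70 (without CTRL 2) and -0.58 (without CTRL 3). In edgeR, DESeq2 and limma-voom its adjusted p was at least 0.83. Other scaling, the unstranded column and leaving out each library were judged by the permutation test. That test cannot go below 0.10 with 3 against 3 libraries, nor with 1 library left out. It could therefore not have passed the threshold, and its results there decide nothing. For LFY, limma-voom and the replicate block were run without the filter, a choice made after seeing the data. For FT1, FT2 and CEN2, and for the ratio of CEN1 to CEN2, no fold change was computed and the other settings were not run, since both groups of these 3 genes were under 3 counts. The count of called genes in the whole table, 1, became 38 with DESeq2, 2 with limma-voom, 0 with library size only, 0 with the replicate block, 7 without RNAi 1 and 0 without any other single library; the cause was not tested. With the replicate number as a block CEN1 had a log2 fold change of -0.35 (adjusted p = 0.88 in edgeR). Over all tested genes, departures of same-numbered libraries from their group means had correlations of 0.24, -0.02 and -0.03 for numbers 1, 2 and 3. For differently numbered libraries they ran from -0.40 (RNAi 1 with CTRL 2) to 0.42 (RNAi 3 with CTRL 2). With 3 libraries per group, these values cannot decide whether the numbers pair the plants. Depth limits the statements on FT1, FT2, CEN2 and LFY: a count of 0 in a single library allows a level of up to 0.173 to 0.260 CPM.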
